A study of Homo sapiens with 12 samples.

Results

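The expression of the glucocorticoid receptor and of genes known to respond to it was examined in DU-145 and LNCaP-AI prostate cancer cells. The group held 10 of the 58037 genes in the count table: the receptor NR3C1, its close relative NR3C2, the kinases SGK1, SGK2 and SGK3, and the response genes TSC22D3, PER1, ZBTB16, CRISPLD2 and ERRFI1. They were taken by symbol, and they were chosen by earlier results of the same comparisons, so their changes are given here as descriptions without p-values. RNA-seq was available for 12 samples. DU-145 cells treated with vehicle, DU-145 cells treated with DOX, LNCaP-AI cells treated with vehicle and LNCaP-AI cells treated with DOX were each represented by 3 samples. DOX is doxycycline, given at 500 ng/ml for 7 days, and all 4 groups, the vehicle controls included, carried the tet-MUC1shRNA vector, from which DOX induces a hairpin against MUC1. The sample labels name the vehicle groups shCTL and the DOX groups shMUC1, whereas the study's methods describe the same tet-MUC1shRNA cells with vehicle or DOX. No sample combined DOX with a control hairpin among those used, and DOX itself and MUC1 silencing cannot be told apart. LNCaP-AI is a derivative of C4-2B cells, themselves derived from LNCaP, that was selected by prolonged culture without androgen, whereas DU-145 cells are insensitive to androgen. The labels give phenol red-free medium with charcoal-stripped serum for both lines, whereas the study's methods give DU-145 cells ordinary fetal bovine serum. Charcoal removes steroids from serum, so the amount of glucocorticoid in the DU-145 medium is not settled by the sources, and no sample is described as treated with a glucocorticoid. Samples of a group were cells cultured in triplicate, and the p-values given for other genes measure the spread between such cultures alone.

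The glucocorticoid receptor is a nuclear receptor that waits in the cytoplasm in a complex with HSP90 and its co-chaperones. Cortisol releases it to the nucleus, where receptor dimers bind an inverted repeat, the glucocorticoid response element, and raise or lower the transcription of nearby genes. Among its best known targets are SGK1, TSC22D3, ZBTB16 and FKBP5, which androgens also induce in prostate cells. A change in such a gene therefore does not identify the hormone signal behind it.

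Response elements were searched for as GNACANNNTGTNC, a motif that reads alike on both strands, in the 5000 bases upstream of each annotated start site of a protein-coding gene (GRCh38, GENCODE 44). Of all 55770 windows, 5.9% held the motif, and 7.9% of 19690 genes had it at a start site or more. SGK1, PER1 and NR3C2 held 1 such site each. They are shown because they place a candidate element beside SGK1 and PER1, which were high in some samples and low in others, and beside NR3C2, which was low in all. The capitals mark the motif, and each sequence is written 5′ to 3′ on the minus strand, from which all 3 genes are transcribed:
SGK1: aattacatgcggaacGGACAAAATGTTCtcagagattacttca
PER1: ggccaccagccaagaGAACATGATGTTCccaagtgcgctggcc
NR3C2: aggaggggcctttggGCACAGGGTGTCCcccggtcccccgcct
The SGK1 sequence lies at chr6:134176010-134176052, with the motif 34 bases upstream of the nearest start site and within the window of 4 of the gene's 7 start sites. The PER1 sequence lies at chr17:8154446-8154488, 2057 bases upstream of the nearest start site and in the window of 2 of 3. The NR3C2 sequence lies at chr4:148443782-148443824, 1277 bases upstream of the nearest and in the window of 3 of 5. All 3 motifs fall in introns of the longer transcripts of their own genes. The motif was not in the windows of NR3C1, SGK2, SGK3, TSC22D3, ZBTB16, CRISPLD2 or ERRFI1. The stricter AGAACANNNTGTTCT was found in 0.095% of all windows. In the shorter RefSeq promoters (GRCh38, 300 bases around the start, 7 of the 10 genes matched), GNACANNNTGTNC was in 0.39% of 35116 promoters and in none of the matched genes, and the half-site AGAACA or TGTTCT was in 14.8% of all promoters and in 1 of 3 SGK1 promoters. A match describes these letters and is not evidence of binding.

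Total counts ran from 10423437 to 13544153 in DU-145 samples and from 16569613 to 26961777 in LNCaP-AI samples. Levels are given as CPM, the counts of a gene relative to library size, TMM-normalized over the 12 samples, and 3 counts were taken as the floor of detection in a sample. The targeted gene MUC1, a membrane mucin, had 59 to 74 counts in DU-145 vehicle samples and 3 in each DU-145 DOX sample. In LNCaP-AI cells it had 25 to 52 counts with vehicle and 3 to 8 with DOX. Among prostate luminal markers, all 7 reported here were above the floor in LNCaP-AI cells and 2 of 7 in DU-145 cells, where KLK2, KLK3, HOXB13 and FOLH1 had 0 counts. At this depth a count of 0 allows up to the floor of 3 counts in a sample. The main division among the LNCaP-AI samples was not treatment. Along the leading principal component, which held 82.2% of the variance in log2 CPM, DOX 2 and DOX 3 sat with vehicle 1, and DOX 1 sat with vehicle 2 and vehicle 3. Several of the genes described here followed this division, and no label gives a reason for it.

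**Figure D1:**
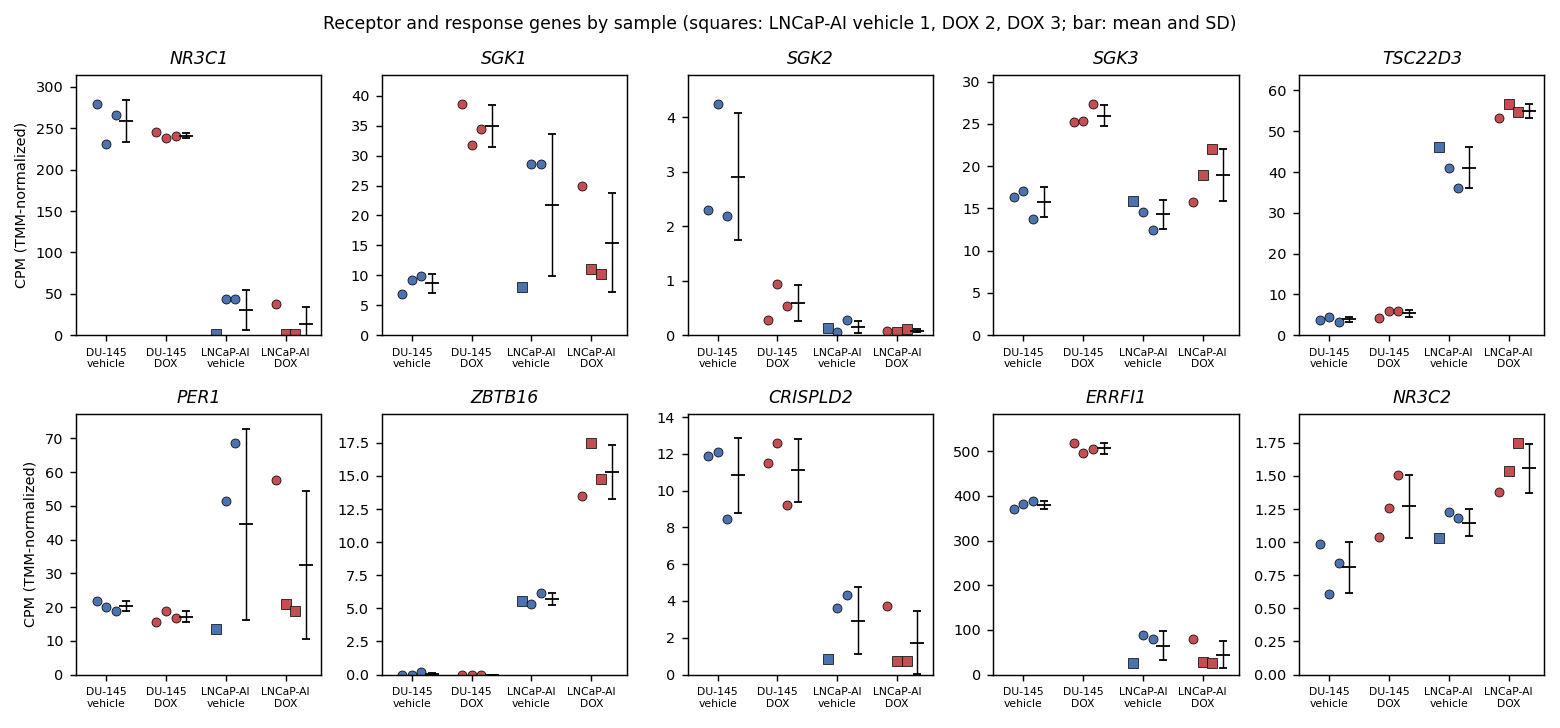
TMM-normalized CPM (vertical axes, each from 0) of the 10 genes in every sample of the 4 groups, with blue points for vehicle, red for DOX, and bars for the mean and SD (n = 3). LNCaP-AI vehicle 1, DOX 2 and DOX 3 are squares and lie apart from the other LNCaP-AI samples for NR3C1, SGK1, PER1, CRISPLD2 and ERRFI1, whereas SGK1 in DU-145 cells moves from 6.88 to 9.82 with vehicle to 31.7 to 38.7 with DOX.

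NR3C1 encodes the glucocorticoid receptor (chromosome 5 from 143277931 to 143435512, minus strand). It had 280.0, 231 and 266 CPM in the DU-145 vehicle samples and 245, 238 and 241 CPM with DOX. In LNCaP-AI cells it had 2.09, 44.3 and 43.7 CPM with vehicle and 37.6, 1.14 and 1.18 CPM with DOX. Every DU-145 sample was thus above every LNCaP-AI sample, the DU-145 groups overlapped, and in each LNCaP-AI group a low and a high state stood side by side. As counts, the low LNCaP-AI samples held 47, 20 and 21 reads and the high ones 829 to 1261, so that the low state was detected well above the floor. The DOX effect was -0.09 ± 0.0737 on the log2 scale (fold change ± standard error) in DU-145 cells, where the gene was called without vehicle 2 alone among the alternatives. In LNCaP-AI cells it was -1.18 ± 1.59, and without DOX 1 it was -4.70. With vehicle, NR3C1 was higher in DU-145 than in LNCaP-AI cells by 3.14 ± 0.890 on the log2 scale.

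NR3C2, the mineralocorticoid receptor (chromosome 4 from 148078762 to 148444698, minus strand), binds cortisol and aldosterone. It was low in every sample, with 6 to 17 counts in DU-145 and 23 to 34 counts in LNCaP-AI samples. DU-145 vehicle samples had 0.606 to 0.983 CPM and DOX samples 1.04 to 1.51, and LNCaP-AI cells had 1.03 to 1.23 CPM with vehicle and 1.38 to 1.75 with DOX. DOX samples lay above vehicle samples in both lines without overlap, with log2 fold changes of 0.63 ± 0.354 and 0.41 ± 0.20, neither of them called. Between the vehicle-treated lines it differed by -0.45 ± 0.270 (log2, DU-145 minus LNCaP-AI), which was not called although the groups did not overlap.

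SGK1 encodes a serine/threonine kinase related to AKT that promotes sodium transport and cell survival, and it is a classical early target of glucocorticoids (chromosome 6 from 134169248 to 134318112, minus strand). It had 6.88, 9.30 and 9.82 CPM in DU-145 vehicle samples and 38.7, 31.7 and 34.5 CPM with DOX. The groups did not overlap, and SGK1 rose 2.02 ± 0.126 on the log2 scale, whereas NR3C1 in the same samples moved by -0.09. In LNCaP-AI cells SGK1 had 8.02, 28.6 and 28.6 CPM with vehicle and 25.0, 11 and 10.3 CPM with DOX, an overlap in which DOX samples 2 and 3 resembled vehicle 1. Its log2 fold change there was -0.51 ± 0.568. The DOX effects of the lines differed by -2.50 ± 0.647 (log2, LNCaP-AI minus DU-145), and SGK1 was the only one of the 10 genes called in this interaction, in which 9.18% of 16800 genes were called. That call was lost when any DU-145 sample, or LNCaP-AI vehicle 2, vehicle 3, DOX 2 or DOX 3, was left out, and with the replicate block, while NR3C1 and ERRFI1 were called as well without LNCaP-AI DOX 1.

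SGK2 is a related kinase with little expression in most tissues (chromosome 20 from 43558968 to 43588237, plus strand). DU-145 vehicle samples held 28, 42 and 26 counts and DOX samples 3, 12 and 6, the first of which is at the floor. On the CPM scale these were 2.29, 4.25 and 2.18 with vehicle and 0.283, 0.944 and 0.531 with DOX, and SGK2 fell by 2.21 ± 0.391 on the log2 scale in the samples in which SGK1 rose. LNCaP-AI samples held 1 to 8 counts, too few for a test. Part of an SGK2 exon is shared with another annotated transcript on the same strand, and how shared reads were counted is not given in the sources used here.

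SGK3, a kinase recruited to endosomes by phosphoinositides, lies on chromosome 8 from 66712734 to 66862022 on the plus strand. It had 16.3, 17.1 and 13.7 CPM in DU-145 vehicle samples and 25.2, 25.3 and 27.4 CPM with DOX, without overlap, and rose 0.74 ± 0.104 on the log2 scale. In LNCaP-AI cells it had 15.9, 14.6 and 12.5 CPM with vehicle and 15.8, 19.0 and 22.0 CPM with DOX. These groups overlapped by the near-equal values of vehicle 1 and DOX 1, and the log2 fold change was 0.37 ± 0.171. The value of SGK3 is uncertain, because it shares exons with the read-through gene C8orf44-SGK3. The 3 kinases therefore moved differently with DOX in DU-145 cells, with SGK1 and SGK3 higher and SGK2 lower.

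TSC22D3 encodes GILZ, a leucine zipper protein that mediates anti-inflammatory effects of glucocorticoids (chromosome X from 107713221 to 107777342, minus strand). In LNCaP-AI cells it had 46.1, 41.1 and 36.1 CPM with vehicle and 53.3, 56.8 and 54.6 CPM with DOX. The groups did not overlap, the log2 fold change was 0.39 ± 0.116 and the gene was not called, although it was with DESeq2 and without vehicle 1 or DOX 1. Unlike NR3C1, TSC22D3 was nearly even across the LNCaP-AI samples. In DU-145 cells it was far lower, with 3.85, 4.55 and 3.27 CPM with vehicle and 4.24, 5.82 and 5.93 CPM with DOX. These values overlapped, with a log2 fold change of 0.48 ± 0.197, and the call was lost with DESeq2, with its size factors, with upper-quartile normalization, with the replicate block, with all 12 samples in one fit and without vehicle 1, vehicle 3, DOX 2 or DOX 3. With vehicle, the lines differed by -3.37 ± 0.171 (log2, DU-145 minus LNCaP-AI), the opposite order to NR3C1. An exon of NCBP2L lies on the opposite strand within it.

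ZBTB16 encodes PLZF, a zinc finger repressor induced by both glucocorticoids and androgens (chromosome 11 from 114059041 to 114256765, plus strand). DU-145 samples held 0, 0 and 2 counts with vehicle and 0 in each with DOX. LNCaP-AI cells had 5.57, 5.29 and 6.18 CPM with vehicle and 13.5, 17.5 and 14.8 CPM with DOX. All DOX samples were above all vehicle samples, and the gene rose 1.40 ± 0.153 on the log2 scale, the only call among the 10 genes in this line. The call was lost without DOX 2 or DOX 3 and with the replicate block. At a floor of 3 counts per library, equal to 0.267 CPM, LNCaP-AI vehicle cells at 5.68 CPM were at least 21.3-fold higher than DU-145 vehicle cells.

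PER1, a period protein of the circadian clock that glucocorticoids induce quickly, lies on chromosome 17 from 8140472 to 8156506 on the minus strand. It had 21.9, 19.9 and 18.9 CPM in DU-145 vehicle samples and 15.7, 18.9 and 16.8 CPM with DOX, with a log2 fold change of -0.23 ± 0.105 that was called with upper-quartile normalization and without DOX 2. In LNCaP-AI cells it had 13.4, 51.5 and 68.7 CPM with vehicle and 57.8, 20.9 and 18.8 CPM with DOX. The spread within each LNCaP-AI group exceeded the difference between the groups, which was -0.47 ± 0.682. Parts of PER1 exons are shared with MIR6883 and another annotated gene on the same strand, so its value carries the same uncertainty about shared reads.

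CRISPLD2, a secreted protein with anti-inflammatory activity (chromosome 16 from 84819985 to 84920768, plus strand), was as low in the low LNCaP-AI samples as 0.732 to 0.847 CPM. The other LNCaP-AI samples had 3.63, 4.30 and 3.70 CPM. DU-145 cells had 11.9, 12.1 and 8.47 CPM with vehicle and 11.5, 12.6 and 9.21 CPM with DOX, and their log2 fold change was 0.05 ± 0.151. DU-145 vehicle samples thus lay above all LNCaP-AI vehicle samples, by 1.92 ± 0.517 on the log2 scale.

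ERRFI1 encodes MIG6, a feedback inhibitor of the EGF receptor (chromosome 1 from 8004404 to 8026309, minus strand). DU-145 cells had 370.0, 381 and 388 CPM with vehicle and 519, 496 and 504 CPM with DOX, without overlap, and ERRFI1 rose 0.42 ± 0.0676 on the log2 scale. LNCaP-AI cells had 26.5, 87.7 and 80.6 CPM with vehicle and 80.5, 27.9 and 25.5 CPM with DOX, which again placed vehicle 1 with DOX 2 and 3. Its log2 fold change there was -0.56 ± 0.609, and with vehicle DU-145 cells were higher by 2.59 ± 0.410.

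**Figure D2:**
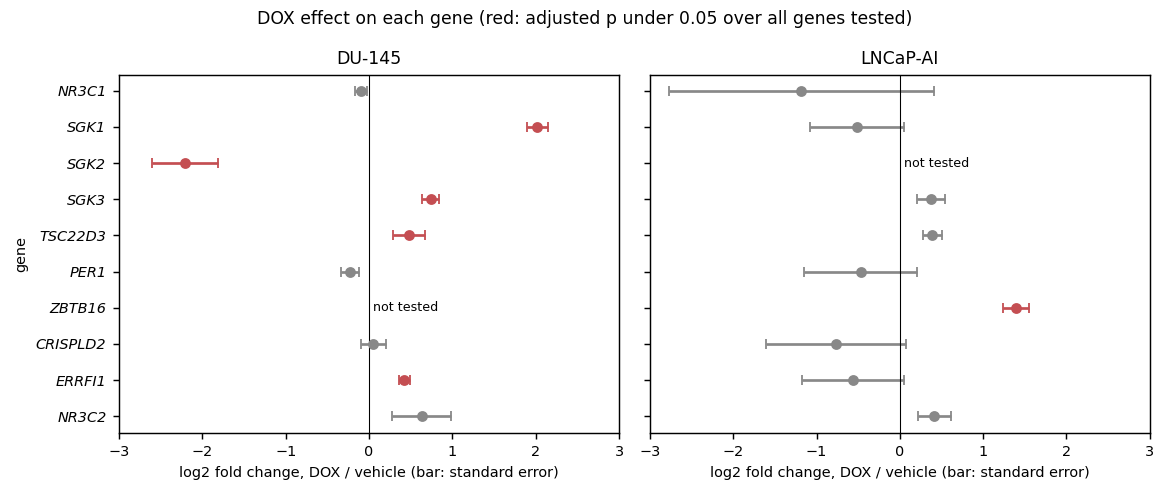
Log2 fold change of DOX over vehicle (horizontal axis) for each gene in DU-145 cells (left) and LNCaP-AI cells (right), with bars for the standard error (3 samples per group) and red for an adjusted p under 0.05 over all genes tested. SGK1 at 2.02 and SGK2 at -2.21 are the farthest from 0 in DU-145 cells, and in LNCaP-AI cells the bars are wide for NR3C1, PER1 and CRISPLD2 while ZBTB16 is at 1.40.

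Over the 9 of the 10 genes tested in DU-145 cells, 5 were called with DOX (SGK1, SGK3, TSC22D3 and ERRFI1 higher, SGK2 lower), beside 51.5% of all 13644 genes tested. The groups did not overlap for 5 (SGK1, SGK2, SGK3, ERRFI1 and NR3C2), beside 57.3% of all genes. In LNCaP-AI cells 1 of 9 tested was called, beside 12.7% of 16030 genes, and 3 did not overlap (TSC22D3, ZBTB16 and NR3C2), beside 38.1%. ZBTB16 in DU-145 cells and SGK2 in LNCaP-AI cells did not reach the minimum count. Between the vehicle-treated lines 7 of 10 were called, beside 65.1% of 15628 genes, and the groups did not overlap for 7, beside 73.3%. NR3C1, SGK2, CRISPLD2 and ERRFI1 were higher in DU-145 cells, and SGK1, TSC22D3 and ZBTB16 in LNCaP-AI cells. SGK1 was called there although LNCaP-AI vehicle 1, at 8.02 CPM, lay within the DU-145 values, and the call was lost without any of the DU-145 vehicle samples or LNCaP-AI vehicle 2 or vehicle 3. PER1 was called without LNCaP-AI vehicle 1 and with no filter, and CRISPLD2 was not called without DU-145 vehicle 2. SGK2 did not reach the minimum count in enough samples once any DU-145 vehicle sample was left out, nor ZBTB16 once any LNCaP-AI vehicle sample was. Both entered this comparison only through the line in which they were high, so their calls between the lines are not read. These comparisons share the vehicle samples, and since the genes were chosen with their changes known, nothing is read from the counts.

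The order of the genes within a sample group was set on CPM per kilobase of exon. In DU-145 vehicle cells ERRFI1 led at 90.9 ± 2.25 (SD, n = 3) CPM per kilobase, and NR3C1 followed at 28.2 ± 2.76. PER1 at 2.89 ± 0.223 and SGK3 at 2.76 ± 0.314 did not differ beyond their spread, CRISPLD2 was at 1.36 ± 0.256, and SGK1 at 0.870 ± 0.157 and TSC22D3 at 0.785 ± 0.129 were again within their spread. SGK2 was at 0.534 ± 0.213 and NR3C2 at 0.122 ± 0.0287. With DOX, SGK1 in DU-145 cells reached 3.51 ± 0.352 and passed PER1, at 2.45 ± 0.227. In LNCaP-AI vehicle cells the order by mean was ERRFI1 (15.5 ± 8.01), TSC22D3 (8.29 ± 1.01), PER1 (6.36 ± 4.04), NR3C1 (3.28 ± 2.64), SGK3 (2.52 ± 0.307) and SGK1 (2.18 ± 1.19), and the ranges of mean ± SD of neighbours overlapped. By mean, CRISPLD2 at 0.368 ± 0.230 and ZBTB16 at 0.343 ± 0.0273 were lower and did not differ beyond their spread. NR3C2 followed at 0.173 ± 0.0161, and SGK2 was at or near the floor. These means and SDs mix the sides of the LNCaP-AI division, and the order differed between samples. In vehicle 1 TSC22D3 was at 9.3, ERRFI1 at 6.35, ZBTB16 at 0.337 and NR3C1 at 0.229. In vehicle 2 ERRFI1 was at 21.0, TSC22D3 at 8.29 and NR3C1 at 4.84. The receptor was thus the gene of second highest level per length in DU-145 vehicle cells, and TSC22D3, near the bottom there, was among the highest in LNCaP-AI cells.

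The division of the LNCaP-AI samples was followed through the 10 genes, because it put DOX samples with vehicle samples. NR3C1 had 1.14 to 2.09 CPM in vehicle 1, DOX 2 and DOX 3 and 37.6 to 44.3 CPM in vehicle 2, vehicle 3 and DOX 1, a ratio of means of 28.4. PER1 was 3.35-fold higher in the latter samples (13.4 to 20.9 against 51.5 to 68.7 CPM), ERRFI1 3.12-fold (25.5 to 27.9 against 80.5 to 87.7 CPM) and CRISPLD2 5.01-fold. SGK1 was 2.80-fold higher (8.02 to 11 against 25.0 to 28.6 CPM). FKBP5, a co-chaperone that is both a target and an inhibitor of the receptor, was 1.67-fold higher (92.3 to 127 against 156 to 192 CPM). PER1, ERRFI1, CRISPLD2, SGK1 and FKBP5 were thus higher where NR3C1 was higher, without overlap, in vehicle and DOX samples alike. Of all 16030 genes, 21.4% were likewise higher there without overlap. NFKBIA was 1.38-fold higher there without overlap, DUSP1 overlapped (ratio 1.06), and KLF9 was lower there without overlap (58.0 to 61.5 against 50.2 to 56.9 CPM). SGK3 was lower as well in the samples high in NR3C1, from 15.9 to 22.0 down to 12.5 to 15.8 CPM. TSC22D3, ZBTB16 and NR3C2 overlapped between the sides.

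**Figure D3:**
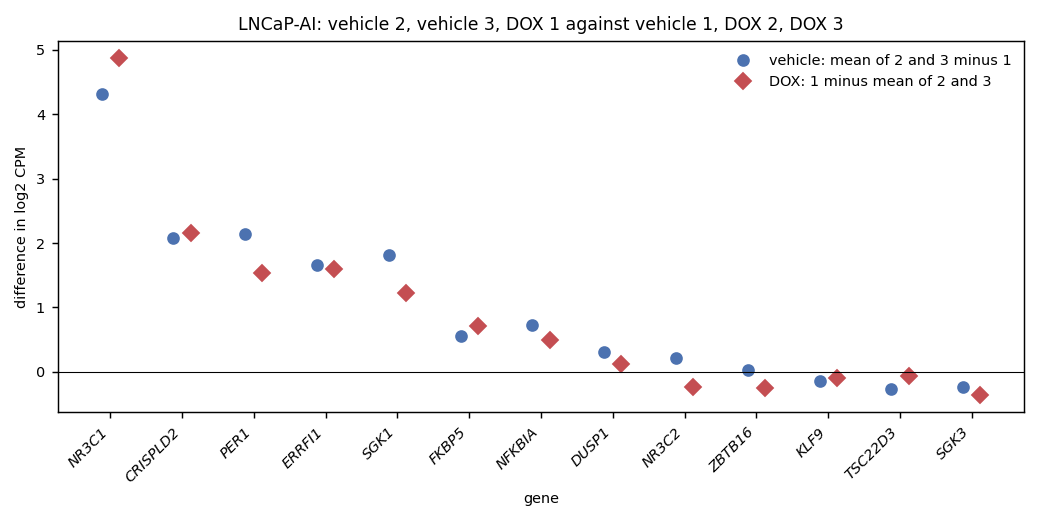
Difference in log2 CPM (vertical axis) between LNCaP-AI samples of one treatment: vehicle 2 and 3 minus vehicle 1 (blue circles) and DOX 1 minus DOX 2 and 3 (red diamonds), for the genes tested and for FKBP5, NFKBIA, DUSP1 and KLF9. The 2 symbols lie close to each other for most genes, from 4.32 and 4.88 for NR3C1 to below 0 for SGK3.

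Because the sides come from the counts being compared, these differences carry no test, and they are given beside all genes. The mean side difference of NR3C1 was 4.60 on the log2 scale, and 1.97% of 16030 genes differed by as much in either direction. For CRISPLD2 (2.12), PER1 (1.84), ERRFI1 (1.63) and SGK1 (1.52) the share was 5.76% to 6.89%, for FKBP5 (0.63) 15.2%, and for SGK3 (-0.30) 44%. The sides did not overlap for 35.2% of all genes, and the median absolute difference was 0.258. The basal markers KRT5, KRT14 and TP63 moved with the division. Their summed level was 1.11 to 4.34 CPM in the samples low in NR3C1, where 1 of 3 was above the floor in each sample, and 41.7 to 51.6 CPM in the others, where all 3 were. In DU-145 cells, where NR3C1 was above every LNCaP-AI sample, they summed to only 0.0 to 0.168 CPM with vehicle and 0.0 to 0.551 CPM with DOX. Across the lines, basal markers and NR3C1 thus did not go together. In LNCaP-AI cells the luminal markers, all 7 above the floor on both sides, summed to 1840.0 to 3360.0 CPM in the samples low in NR3C1 and to 1200.0 to 2560.0 CPM in the others. Fibroblast markers summed to 18.3 to 21.5 and 17.7 to 23.9 CPM and endothelial markers to 5.17 to 7.82 and 4.76 to 8.67 CPM, and leukocyte markers did not pass 0.243 CPM in any sample, with CD3E at 0 on both sides. The part of any of these in the levels of the receptor and its response genes was not tested. By treatment, luminal markers summed to 1200.0 to 1840.0 CPM with vehicle and 2560.0 to 3360.0 CPM with DOX in LNCaP-AI cells. Endothelial markers, of which 2 of 3 passed the floor in a sample of either group, summed to 4.76 to 5.55 and 7.55 to 8.67 CPM. Neither sum overlapped between the treatments, and 38.1% of all genes tested in LNCaP-AI cells did not overlap either. In DU-145 cells luminal markers summed to 26.9 to 35.3 CPM with vehicle and 43.1 to 47.8 CPM with DOX. Their part in the DOX effects was not tested either. In bulk RNA, fewer cells that express a gene and less RNA per cell cannot be told apart.

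Within the sides, DOX could be set against vehicle with the division held. ZBTB16 was higher with DOX by 1.51 on the log2 scale on the side of vehicle 1 and by 1.22 on the other side, and TSC22D3 by 0.27 and 0.47. SGK3 was higher by 0.36 and 0.23. NR3C1 differed by -0.79 and -0.23, CRISPLD2 by -0.17 and -0.09 and ERRFI1 by 0.01 and -0.06. Their pooled values of -1.18, -0.77 and -0.56 are edgeR fold changes. The within-side values are differences in mean log2 CPM, an unlike measure, so the sizes are not compared. SGK1 differed by 0.40 and -0.19, in opposite directions on the 2 sides. PER1 differed by 0.56 on the side of vehicle 1 and by -0.04, almost nothing, on the other. MUC1 was lower with DOX on both sides, with differences of -2.24 and -1.91. Each within-side value rests on 1 sample of a treatment against 2 of the other, and none was tested.

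The wider pathway was described with 8 lists of genes around the receptor, chosen with earlier results known, each beside all genes tested, of which 51.5% were called in DU-145 and 12.7% in LNCaP-AI cells. In LNCaP-AI cells 5003 of all 16030 genes had an unadjusted p under 0.05 with edgeR, and DESeq2 called 3517. Counts of list genes on those measures stand beside these and are not read as results about the lists. Of 33 other glucocorticoid-induced genes tested in DU-145 cells, 15 rose and 10 fell with DOX (75.8% called), with a median log2 fold change of 0.178 (all genes: 0.001). RASD1, a RAS-related G protein, rose 2.15 ± 0.191 on the log2 scale (adjusted p = 2.44e-08, edgeR's quasi-likelihood test). The metallothionein MT2A rose 1.54 (adjusted p = 7.18e-10, lost with all 12 samples in one fit). The stress gene GADD45A rose 1.50 (adjusted p = 6.45e-10). PDK4, a mitochondrial kinase that spares glucose, fell by 1.15 (adjusted p = 3.48e-05), and SCNN1A, the alpha subunit of the epithelial sodium channel, fell by 1.31 (adjusted p = 1.04e-05). FKBP5, among the most sensitive genes to the receptor, fell from 277 ± 9.81 to 163 ± 6.06 CPM (SD, n = 3; log2 fold change -0.76 ± 0.0662, adjusted p = 1.92e-08). The inhibitor of NF-kappaB NFKBIA fell by 0.55 (adjusted p = 2.27e-06, lost with all 12 samples in one fit). The phosphatase gene DUSP1 rose 0.67 (adjusted p = 8.1e-08) and KLF9 had -0.05 (adjusted p = 0.787). SGK1 and FKBP5, both induced by the receptor elsewhere, thus moved in opposite directions in the same DU-145 samples.

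In LNCaP-AI cells 1 of 35 such genes rose and 1 fell, with a median of -0.152 (all genes: -0.054). When vehicle 2, vehicle 3 or DOX 1 was left out, 31 of the 35 still reached the minimum count. The median thus includes genes tested only through those samples, which are high in NR3C1, and it is not read. ACSL1, which activates long-chain fatty acids, rose from 393 ± 58.3 to 796 ± 96.5 CPM (log2 fold change 0.99, adjusted p = 0.0175), and the repressor BCL6 fell by 0.61 (adjusted p = 0.0427). FKBP5 (-0.56, adjusted p = 0.191), DUSP1 (0.25, adjusted p = 0.236), KLF9 (0.10, adjusted p = 0.542) and NFKBIA (0.16, adjusted p = 0.683) were not called. ACSL1 and BCL6 each went the other way in DU-145 cells, with -0.31 (adjusted p = 0.0237, lost with DESeq2, with all 12 samples and without vehicle 2 or DOX 2) and 0.50 (adjusted p = 0.00363). Without DOX 2 or DOX 3, each call named here for a list gene in LNCaP-AI cells was lost, as it was with the replicate block, and that of BCL6 also with upper-quartile normalization and without vehicle 2 or vehicle 3.

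Of 12 genes that glucocorticoids repress, 4 rose and 2 fell in DU-145 cells (50.0% called, beside 51.5% of all genes), with a median of 0.117. With all 12 samples in one fit 3 rose, and the calls of both that fell were lost. MMP1, the interstitial collagenase, rose from 3.74 ± 0.622 to 44 ± 3.68 CPM (log2 fold change 3.57 ± 0.127, adjusted p = 1.44e-13). The cytokine LIF rose 0.66 (adjusted p = 6.31e-07) and the chemokine CCL20 0.94 (adjusted p = 0.0378, lost with DESeq2, with all 12 samples and without vehicle 1, vehicle 3, DOX 2 or DOX 3). IL11 fell by 0.81 (adjusted p = 1.63e-06) and CXCL8 fell by 0.38 (adjusted p = 0.00291). In LNCaP-AI cells 0 of 13 were called by edgeR (0 at an unadjusted p under 0.05) and 0 by DESeq2, with wide errors, as CXCL8 with -1.15 ± 2.41 and CCL20 with -1.04 ± 2.20. When vehicle 2, vehicle 3 or DOX 1 was left out, 3 of the 13 still reached the minimum count, so the others were tested only through the samples high in NR3C1, and their median is not read.

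Of the receptor's chaperones and coregulators, 3 of 23 rose and 5 fell in DU-145 cells (34.8% called, median 0.012), and in LNCaP-AI cells 0 of 24 rose and 1 fell by edgeR (6 changed at an unadjusted p under 0.05) and 1 rose and 5 fell by DESeq2 (median -0.156). Of all 16030 genes in LNCaP-AI cells, 5003 had an unadjusted p under 0.05 and 3517 were called by DESeq2. MED1, a Mediator subunit that contacts nuclear receptors, fell in both lines, from 240.0 ± 18.6 to 149 ± 6.40 CPM in DU-145 cells (log2 fold change -0.68, adjusted p = 1.96e-07) and with a log2 fold change of -0.64 ± 0.11 in LNCaP-AI cells (adjusted p = 0.0212). In DU-145 cells the co-chaperone BAG1 rose 0.49 (adjusted p = 1.2e-05) and the coactivator CRTC2 rose 0.41 (adjusted p = 0.000115), whereas PTGES3, the p23 co-chaperone, fell by 0.33 (adjusted p = 0.00348). The acetyltransferase EP300 rose 0.21 (adjusted p = 0.0339), a call lost with DESeq2, with upper-quartile normalization, with all 12 samples and without vehicle 1, vehicle 3, DOX 1 or DOX 3.

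Among genes of glucocorticoid metabolism and transport, 1 of 5 rose and 1 fell in DU-145 cells (40.0% called, median 0.349), and 0 of 6 were called in LNCaP-AI cells by edgeR (1 at an unadjusted p under 0.05) or DESeq2 (median 0.063). H6PD, which supplies NADPH to the enzyme that regenerates cortisol in the endoplasmic reticulum, fell from 32.4 ± 3.43 to 13.2 ± 1.47 CPM in DU-145 cells (-1.28, adjusted p = 1.25e-08), and the reductase POR rose 0.35 (adjusted p = 0.00121). Of the other receptors of the NR3 family, ESRRA was the only one tested in DU-145 cells and rose 0.34 (adjusted p = 0.00896, lost without DOX 2). In LNCaP-AI cells 0 of 4 were called by edgeR (1 at an unadjusted p under 0.05) and 1 by DESeq2 (median -0.543).

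Around the SGK kinases, 8 of 21 activators and substrates rose and 2 fell in DU-145 cells (47.6% called, beside 51.5% of all genes, median 0.175). Those that rose were 5 without vehicle 3 and 3 with all 12 samples in one fit. NDRG1, a substrate whose phosphorylation reports SGK activity, rose from 64.8 ± 2.89 to 157 ± 10.7 CPM (1.29 ± 0.0724, adjusted p = 5.62e-11). NEDD4L, a ubiquitin ligase that SGK1 inhibits, rose from 129 ± 5.15 to 306 ± 10.1 CPM (1.26 ± 0.0672, adjusted p = 2.84e-11). MAPKAP1, a subunit of the mTORC2 complex that activates SGK kinases, rose 0.59 (adjusted p = 1.11e-06), and NDRG2 fell by 1.10 (adjusted p = 0.00015). In LNCaP-AI cells 1 of 23 rose and 1 fell (median -0.083). NEDD4L rose from 218 ± 5.01 to 338 ± 18.4 CPM (0.61, adjusted p = 0.0129). SCNN1B, another sodium channel subunit, had 20 to 25 counts per sample with vehicle and 1 to 6 with DOX (-2.58). It reached the minimum count through the vehicle samples alone, where it was high, so its call is not read. These are transcript levels, and kinase activity was not measured.

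Of the circadian clock genes, the company of PER1, 6 of 13 rose and 4 fell in DU-145 cells (76.9% called, median 0.246), with 2 that rose when all 12 samples were in one fit and 2 that fell without DOX 3, and 0 of 18 were called in LNCaP-AI cells by edgeR (5 at an unadjusted p under 0.05) and 4 by DESeq2 (median -0.128). Among all 16030 genes in LNCaP-AI cells, the counts on these last 2 measures were 5003 and 3517. In DU-145 cells the repressor CRY2 rose 1.40 (adjusted p = 2.43e-05) and the activator NPAS2 0.86 (adjusted p = 6.81e-05, lost with all 12 samples in one fit). CRY1 fell by 0.68 (adjusted p = 0.000311) and CLOCK fell by 0.67 (adjusted p = 3.12e-06). BHLHE41 rose 0.96 (adjusted p = 0.0334) and PER3 fell by 1.17 (adjusted p = 0.0121) from few counts, and the former call was lost with DESeq2, with all 12 samples and without vehicle 1, vehicle 2 or DOX 1 and the latter without DOX 3. Among relatives of the response genes, 4 of 9 rose and 2 fell in DU-145 cells (66.7% called, median 0.201). ZBTB7B rose 0.69 (adjusted p = 3.85e-07) and TSC22D1 0.51 (adjusted p = 6.61e-06). CRISPLD1 fell by 0.72 (adjusted p = 0.00611, lost with all 12 samples in one fit) and TSC22D2 fell by 0.32 (adjusted p = 0.000833). In LNCaP-AI cells 1 of 10 rose and 2 fell (median 0.192). CRISP3, a secreted protein of prostate epithelium, rose from 1.42 ± 0.316 to 6.50 ± 1.66 CPM (2.16, adjusted p = 0.0143), and TSC22D2 fell by 0.51 (adjusted p = 0.0401, also lost with upper-quartile normalization and without vehicle 3).

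**Figure D4:**
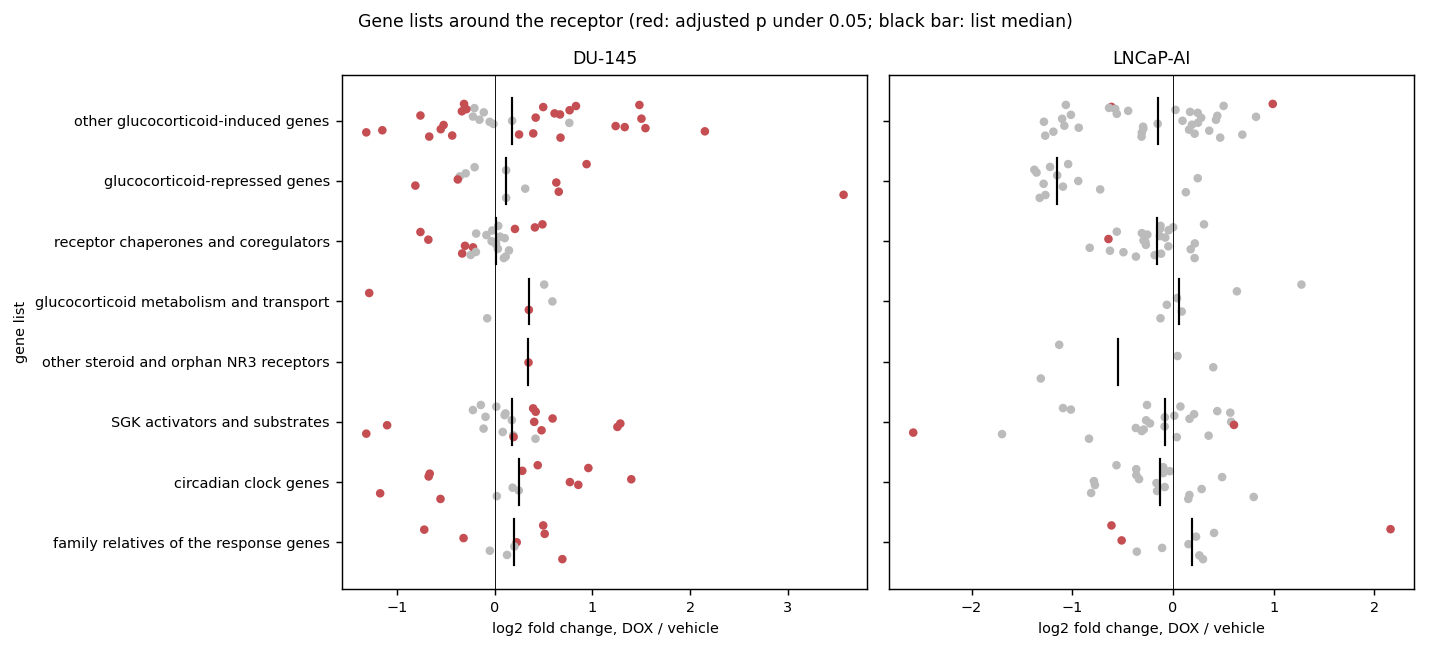
Log2 fold change of DOX over vehicle (horizontal axes, different ranges) for the genes of 8 lists in DU-145 cells (left) and LNCaP-AI cells (right), each point a gene, red for an adjusted p under 0.05, and black bars for list medians. In DU-145 cells most lists hold red points on both sides of 0, with MMP1 at 3.57, and in LNCaP-AI cells few points are red. There, all but 3 of the 13 glucocorticoid-repressed genes were tested only through vehicle 2, vehicle 3 and DOX 1, so their bar is not read. The bar of the 35 other glucocorticoid-induced genes is not read there either, since 31 reached the minimum count when any of those samples was left out.

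The genes most like NR3C1, SGK1 and TSC22D3 over the 12 samples were found by the root mean square difference between log2 CPM profiles, each centred on its own mean, among 16657 genes. CAV2, a caveolin, was nearest to NR3C1 with a difference of 0.191, followed by EMILIN2 (0.243), MEIS2 (0.260), MET (0.260) and GNE (0.268). For SGK1 the nearest were EPCAM (0.287), ZNF165 (0.334), the metallothionein MT1X (0.366), KLF4 (0.430) and SAT1 (0.448). For TSC22D3 they were FRAT2 (0.196), CRYL1 (0.205), THNSL1 (0.209), PSD4 (0.212) and IQANK1 (0.216). None of the 15 genes is one of the 10 described here, and the samples share lines, treatment and the division of the LNCaP-AI samples. The profile of SGK1 had no neighbour as close as the nearest of NR3C1 and TSC22D3.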

How the data were processed

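RNA-seq of 3 samples in each of 4 groups was used. Per the labels and the study's methods, the authors extracted RNA with Trizol, prepared stranded TruSeq mRNA libraries, and processed reads with CASAVA 1.8.2 and STAR 2.7.0 on GRCh38.p7 (the study's methods write another release). DESeq2 1.24.0 was used in their own tests. The counting tool, its strand setting and the annotation are not given in the sources used here. The deposited values are raw read counts per gene, without normalization, for 58037 genes, of which 56948 had a symbol.

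A gene entered a comparison if 3 or more of its samples held 10 or more counts, and was tested with edgeR 4.0.16 (R 4.3.3, TMM, quasi-likelihood) the call threshold being an adjusted p (Benjamini-Hochberg) under 0.05. Each line was fitted alone for DOX against vehicle, the vehicle groups were compared between lines, and the difference in DOX effect was an interaction over 12 samples. Standard errors come from the fold change and F. The fit was tested on simulated counts. Positions and exon lengths come from GENCODE 44. Floors cover counting error only, and reads carry no molecular identifiers. Replicates of each group differed by more than sampling noise (lowest chi-square per degree of freedom 2.53).

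The 10 genes and the lists were chosen with earlier results of these data known. Beside all 10, FKBP5, KLF9, DUSP1, NFKBIA and MUC1 were named, and from each list and line up to 3 called genes per direction with the largest fold change. The 5 nearest profiles were named for 3 genes. A gene held by a marker list and a pathway list is not reported here. Alternatives were DESeq2 1.42.0, its size factors, a filter at 1 CPM or none, upper-quartile normalization, all 12 samples, the replicate block, leaving out each sample and the sides of the LNCaP-AI samples.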

Additional observations from a re-analysis of the deposited data

Results flagged for a closer look

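For several genes the DOX effect differed between the lines in edgeR's interaction test over 12 samples, given as LNCaP-AI minus DU-145 on the log2 scale. It was higher in LNCaP-AI cells for ACSL1 (1.34, adjusted p = 0.00253) and H6PD (1.36, adjusted p = 0.00112). It was lower for RASD1 (-1.76, adjusted p = 0.00806), BCL6 (-1.08, adjusted p = 0.00777), NEDD4L (-0.61, adjusted p = 0.00324), MAPKAP1 (-0.64, adjusted p = 0.0279) and CRY2 (-0.87, adjusted p = 0.0491). MMP1 had -4.29 (adjusted p = 0.0452), with 0 to 4 counts in LNCaP-AI samples, so that its fitted value there is no measured fold. MUC1 had 1.95 (adjusted p = 0.024), with the DU-145 DOX samples at the floor of 3 counts and the LNCaP-AI DOX samples at 3 to 8. It reached the minimum count through the vehicle samples alone, where it was high. Its value is thus no measured difference in silencing between the lines, and its call is not read. SGK1, one of the 10 genes, had -2.50 and is a description, since it was chosen with this difference known. The call of H6PD held in all 18 alternatives, those of RASD1, ACSL1, BCL6 and NEDD4L in 17 of 18, all but the replicate block. That of MUC1 held in 12, MAPKAP1 in 8, MMP1 in 7 and CRY2 in 3. MUC1 lost it with no filter, with the replicate block and without DU-145 DOX 2 or DOX 3 or LNCaP-AI DOX 1 or DOX 2. MMP1 kept it without LNCaP-AI vehicle 1 or DOX 1, MAPKAP1 without those or DU-145 DOX 2, and CRY2 without LNCaP-AI DOX 1, and each lost it without any other sample. Each of MMP1, MAPKAP1 and CRY2 also lost it with the replicate block. CRY2 lost it with DESeq2 size factors, upper-quartile normalization and no filter as well.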

How the results depend on the processing

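SGK1, SGK2 and SGK3 were called in DU-145 cells in all alternatives run, and no called value of the 10 genes turned its sign. Genes called with DOX in DU-145 cells numbered 7033, and 4083 with all 12 samples in one fit, which left 3 of the 10 genes (SGK1, SGK2 and SGK3) and 7 higher and 5 lower of the other glucocorticoid-induced genes. In LNCaP-AI cells 2043 genes were called, against 3517 with DESeq2 and 3933 with all 12 samples. Leaving out single samples gave 1 to 3538, with 1 each without DOX 2 or DOX 3, 3538 without DOX 1, and 1096 and 994 without vehicle 2 or vehicle 3. The 10 genes had 1 call there, 2 with DESeq2 and 0 to 2 without single samples, ZBTB16 being lost without DOX 2 or DOX 3 and TSC22D3 gained without vehicle 1 or DOX 1. Between the vehicle lines 4 to 7 were called without single samples, the lowest without DU-145 vehicle 2. The interaction gave 1543 genes, 884 with no filter and 737 to 3471 without single samples. Same-numbered samples did not deviate together (correlations of 0.125, -0.089 and 0.075 in DU-145 cells and -0.941, -0.813 and -0.841 in LNCaP-AI cells), so the numbers were not taken as pairs. With the replicate block, 6924 genes were called in DU-145 cells (4 of the 10, TSC22D3 being lost), 0 in LNCaP-AI cells (2909 at an unadjusted p under 0.05, and 0 of the 10), 9378 between lines (7 of the 10) and 52 in the interaction. Higher genes made up 46.3% of calls between lines and 41.2% with upper-quartile normalization, which moved the median of all genes from -0.061 to -0.155, and 56.7% of LNCaP-AI calls, 48.6% without the filter and 70.9% without vehicle 1. The cause of these shifts was not tested. Depth limits ZBTB16 in DU-145 and SGK2 in LNCaP-AI cells, both too low for a fold change.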
